A study of Mus musculus with 12 samples.

Results

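The genes described here were 10 genes that mark plasma cells, namely Xbp1, Prdm1, Irf4, Pou2af1, Sdc1, Tnfrsf17, Jchain, Mzb1, Derl3 and Fkbp11. They were chosen by gene name, and all 10 were found among the 31340 gene rows (31272 gene names) of each library. RNA had been sequenced from bone marrow cells that were sorted as hematopoietic stem cells (HSCs) from wild-type (WT) mice, with 12 libraries in 4 groups of 3. The groups were Ctrl, IR (ionizing radiation), Ab_IR and L_IR. The 3 irradiated groups were taken 3 days after exposure, and the study's methods describe a sublethal dose to the whole body. What Ab and L stand for is not written out in the labels, and the names are used as given. All groups shared the WT genotype and the marrow source. According to the methods, HSCs were Lineage-, Sca-1+, c-Kit+, Flt3- and CD34-, and the lineage mix held antibodies to CD3e, B220, Gr-1, Mac-1 and Ter-119. Whether plasma cells could pass this sort, which also asks for Sca-1 and c-Kit, was not tested. The labels do not say whether replicates came from separate animals, so the p-values below measure only the spread between these samples, which may be technical.

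Plasma cells are the antibody-secreting end of the B cell lineage, and bone marrow is a main home of the long-lived ones. Their identity rests on the transcription factors Irf4 and Prdm1 (Blimp-1), which shut down the B cell program, and on Xbp1, which widens the endoplasmic reticulum (ER) for antibody secretion and is activated when the ER sensor Ern1 (IRE1) splices its mRNA. Pou2af1 (OBF-1) is a B lineage coactivator of octamer-binding factors, Sdc1 (CD138) and Tnfrsf17 (BCMA) are surface proteins, and Jchain, Mzb1, Derl3 and Fkbp11 serve antibody assembly, folding or disposal in the ER.

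The values were read as FPKM, fragments per kilobase of gene scaled to the mapped fragments of the library, so levels can be compared between genes per length. Read counts are not part of FPKM, the depth behind each value is therefore unknown, and no counting interval is given. Library sums ran from 344338 to 405123 FPKM, and 11467 to 12167 gene rows were at 1 FPKM or more. Rows at 0 made up 44.1% of Ctrl replicate 1 but 24.7% to 27.3% of each of the 11 others, and its correlation with the other Ctrl libraries across genes was 0.954 and 0.957 against 0.990 between those. A second split concerned heart muscle transcripts. Nppa, the atrial natriuretic peptide gene, was at 51.2 to 63.9 FPKM in 5 libraries (Ctrl 2 and 3 and all of IR) and at 0 to 0.26 FPKM in the other 7, so this split coincides with IR against Ab_IR and with IR against L_IR and can be separated from them only through Ctrl replicate 1. The HSC label was not matched by all of its markers. Mecom, Slamf1, Fgd5 and Hoxb5 were under 1 FPKM in all 12 libraries, whereas Cd48, Ly6a and Kit led the list of 14 stem and progenitor genes, whose sum was 167 to 184 FPKM in Ctrl, 103 to 112 in IR, 149 to 169 in Ab_IR and 155 to 163 in L_IR.

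Promoter stretches of 4 of the genes are shown because they cover the different patterns described below: Pou2af1 and Xbp1, which were highest in IR, Derl3, an ER gene high in both IR and L_IR, and Jchain, highest in L_IR. RefSeq promoter windows (build GRCm38.p6) of 300 bases, from 250 before to 50 after a gene start, were matched for 9 of the 10 genes, and the 250 bases before the start are printed 5′ to 3′ on the gene's own strand. Capitals mark a match to a motif bound in the unfolded protein response. For Pou2af1 (chr9:51213440-51213689, plus strand) this is the UPRE letters TGACGTGG, at positions -61 to -54 from the start. For Derl3 (chr10:75893148-75893397, plus strand) it is the reverse complement of ERSE, at positions -156 to -138. Xbp1 (chr11:5520391-5520640, plus strand) and Jchain (chr5:88527898-88528147, minus strand) held no match.
Pou2af1: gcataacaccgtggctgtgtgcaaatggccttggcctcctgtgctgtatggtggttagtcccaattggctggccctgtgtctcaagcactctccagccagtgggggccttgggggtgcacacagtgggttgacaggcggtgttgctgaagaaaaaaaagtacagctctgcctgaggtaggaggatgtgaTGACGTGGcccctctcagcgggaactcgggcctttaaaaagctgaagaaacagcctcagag
Derl3: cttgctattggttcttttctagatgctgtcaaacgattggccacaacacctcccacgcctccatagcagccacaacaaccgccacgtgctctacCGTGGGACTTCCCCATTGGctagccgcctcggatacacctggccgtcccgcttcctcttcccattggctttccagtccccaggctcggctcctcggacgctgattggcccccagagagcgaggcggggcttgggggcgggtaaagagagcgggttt
Xbp1: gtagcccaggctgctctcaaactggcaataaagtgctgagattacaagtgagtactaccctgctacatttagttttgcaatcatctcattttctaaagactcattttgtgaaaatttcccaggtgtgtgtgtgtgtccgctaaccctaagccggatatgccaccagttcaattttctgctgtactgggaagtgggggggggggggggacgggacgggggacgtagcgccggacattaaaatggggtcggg
Jchain: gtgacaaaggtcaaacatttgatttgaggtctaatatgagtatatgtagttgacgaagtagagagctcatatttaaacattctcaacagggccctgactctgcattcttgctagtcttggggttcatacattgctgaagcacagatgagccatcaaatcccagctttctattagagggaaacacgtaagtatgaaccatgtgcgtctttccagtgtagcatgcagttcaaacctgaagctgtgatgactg

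The 4 motifs searched on both strands were ERSE (CCAAT and CCACG with any 9 bases between them, in 39 or 0.119% of 32851 windows), ERSE-II (ATTGG and CCACG with any 1 base between them, 12 or 0.0365%), UPRE (TGACGTGG, 222 or 0.676%) and the octamer ATTTGCAT (570 or 1.74%). ERSE-II and ERSE can overlap in their shared letters. Of the 9 genes with a window, 2 held a match and 7 held none. A match is a string of letters and not a measured binding site, and its absence says only that these letters are not in these 300 bases.

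All 10 genes were at 1 FPKM or above in every library, so all 10 passed the filter on low values (1 FPKM or more in 3 or more of the 6 libraries compared) in each comparison. The levels ran from Jchain, with a mean of 884 FPKM over the 12 libraries, through Xbp1 (120.2), Mzb1 (46.8), Pou2af1 (19.5), Derl3 (11.1), Irf4 (9.71), Sdc1 (7.42), Fkbp11 (5.52) and Tnfrsf17 (5.04) to Prdm1 (2.43 FPKM). Ctrl was the lowest group for 9 genes and IR for Tnfrsf17. The highest group was IR for Xbp1, Pou2af1 and Fkbp11 and L_IR for Prdm1, Irf4, Sdc1, Jchain, Tnfrsf17 and Derl3. Mzb1 had its highest mean in IR (62.7 FPKM, against 59.0 in L_IR). Its log2 difference of L_IR from IR turned from -0.09 to 1.05 with the heart transcript split as a term, so this order is not given as a result. In bulk RNA of this kind, fewer cells of a type and less RNA per cell cannot be told apart.

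**Figure D1:**
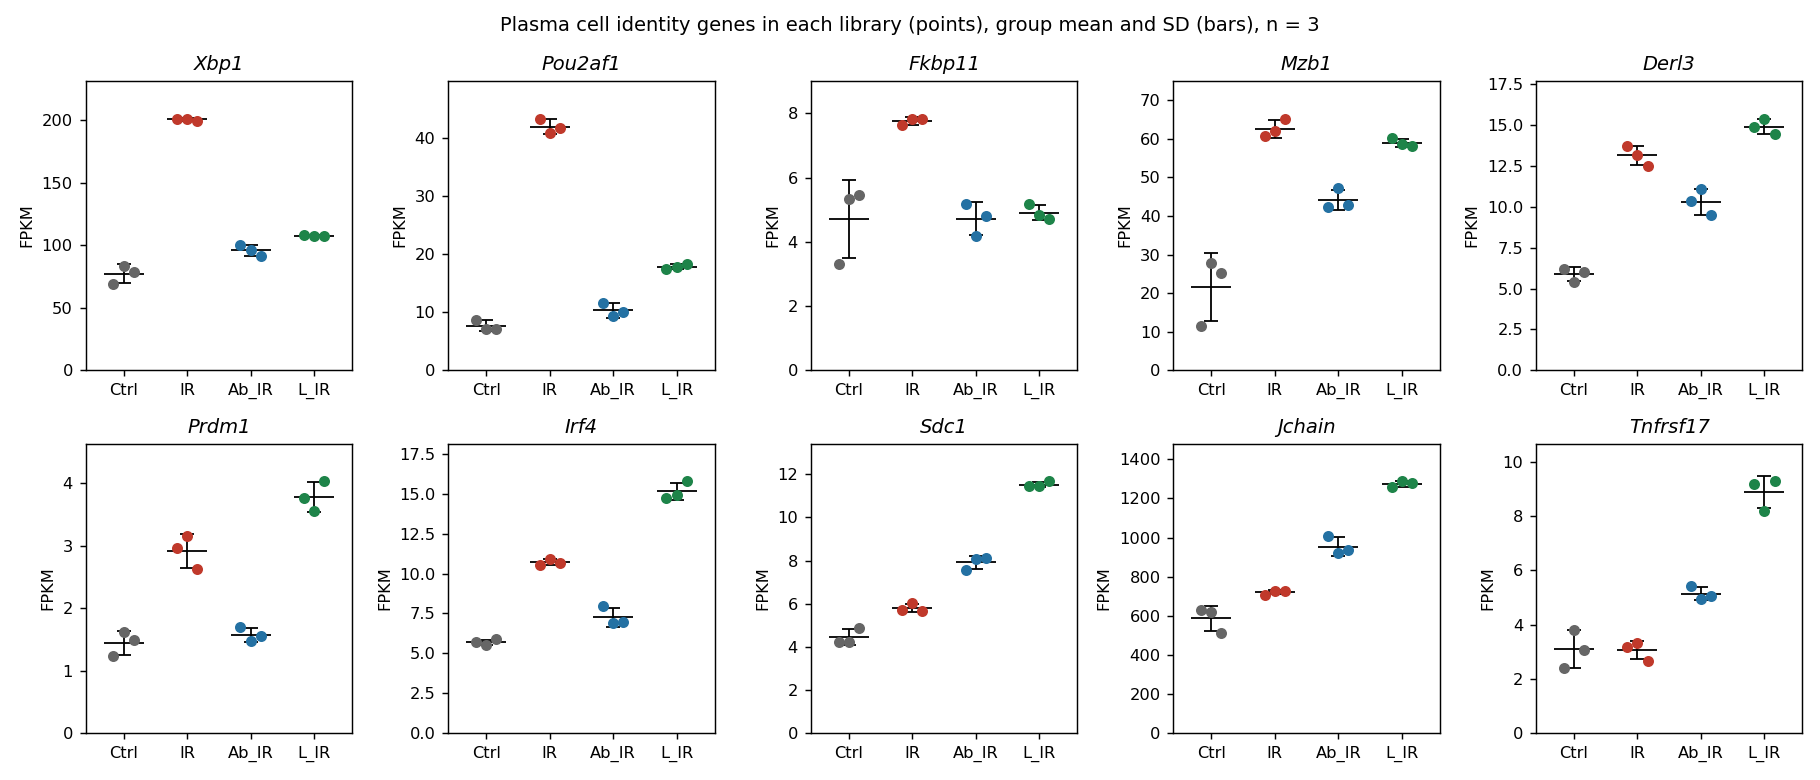
FPKM (linear axis from 0) of the 10 plasma cell identity genes in each library; points are libraries, the long bars group means and the whiskers SD over 3 libraries. Xbp1 and Pou2af1 stand highest in IR, at means of 200.4 and 42.0 FPKM, whereas Sdc1, Jchain and Tnfrsf17 climb from IR over Ab_IR to L_IR, and Ctrl replicate 1 lies below the other Ctrl libraries for Mzb1 and Fkbp11.

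Among the transcription factors, Xbp1 (chromosome 11, 5520659 to 5525893, plus strand, in GRCm38) was at 69.1, 83.6 and 78.6 FPKM in Ctrl, 201, 201 and 199 in IR, 100.1, 96.0 and 91.1 in Ab_IR, and 108.3, 107.5 and 107.0 in L_IR. The IR libraries were the highest by a wide margin, and no pair of groups overlapped. Xbp1 rose in IR against Ctrl by a log2 fold change of 1.37 ± 0.08 (SE; limma, adjusted p = 7.86e-05). It fell in Ab_IR against IR (-1.06 ± 0.04, adjusted p = 9.31e-07), although with the heart transcript split as a term this difference was -0.83 and no longer beyond the fold threshold. That term rests on Ctrl replicate 1 against the other Ctrl libraries. In L_IR the level was between those of Ctrl and IR, with log2 fold changes of -0.89 ± 0.02 against IR and 0.48 ± 0.08 against Ctrl, which passed the adjusted p but not the fold threshold. The spliced and unspliced forms of Xbp1 mRNA are not separated in a gene-level value.

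Pou2af1 (chromosome 9, 51213708 to 51240080, plus strand), shown above with its UPRE letters, was the gene of the 10 with the widest range, with its highest library at 6.09 times its lowest. It was at 8.74, 7.15 and 7.12 FPKM in Ctrl, 43.4, 40.9 and 41.7 in IR, 11.7, 9.28 and 9.99 in Ab_IR, and 17.5, 17.8 and 18.3 in L_IR. The 4 groups did not overlap, with IR far above the others and L_IR second. Pou2af1 rose by 2.32 ± 0.09 in IR against Ctrl (adjusted p = 1.84e-05), a ratio of mean FPKM of 5.48. It fell in Ab_IR against IR (-1.93 ± 0.08, adjusted p = 1.03e-06) and in L_IR against IR (-1.19 ± 0.03, adjusted p = 3.07e-07). L_IR was above Ctrl (1.13 ± 0.09, adjusted p = 0.000716), whereas the difference of 0.38 ± 0.11 between Ab_IR and Ctrl did not pass (adjusted p = 0.156). With the heart transcript split as a term, L_IR was set against Ctrl replicate 1 alone, and the difference was 0.95.

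Irf4 (chromosome 13, 30749226 to 30766976, plus strand) was at 5.69, 5.55 and 5.87 FPKM in Ctrl, 10.6, 10.9 and 10.6 in IR, 7.95, 6.92 and 6.94 in Ab_IR, and 14.8, 15.0 and 15.8 in L_IR. The order was L_IR, IR, Ab_IR and Ctrl, with no overlap between groups. Irf4 rose in L_IR against Ctrl (1.27 ± 0.06, adjusted p = 0.000115). The difference of IR from Ctrl (0.80 ± 0.06, adjusted p = 0.000166) passed the adjusted p and not the fold threshold. Prdm1 (chromosome 10, 44437177 to 44528501, minus strand) was the lowest of the 10 genes and had the same order, at 1.23, 1.61 and 1.49 FPKM in Ctrl, 2.96, 3.16 and 2.62 in IR, 1.70, 1.48 and 1.55 in Ab_IR, and 3.76, 3.56 and 4.03 in L_IR. Ab_IR and Ctrl overlapped for Prdm1, with a log2 difference of 0.08 (95% interval -0.17 to 0.32). L_IR against Ctrl gave 0.97 ± 0.09 (adjusted p = 0.00174), just under the fold threshold, and the added 1 FPKM weighs most on so low a gene: with 0.1 FPKM added it was 1.34.

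The surface proteins had another order. Tnfrsf17, the receptor for the survival factors BAFF and APRIL (chromosome 16, 11313812 to 11320074, plus strand), was at 2.41, 3.8 and 3.06 FPKM in Ctrl, 3.18, 3.33 and 2.67 in IR, 5.42, 4.95 and 5.04 in Ab_IR, and 9.20, 8.19 and 9.28 in L_IR. Ctrl and IR overlapped throughout, and L_IR was the highest group with no overlap. The difference of IR from Ctrl was -0.00021 with a 95% interval of -0.34 to 0.34, and its sign turned with the scaling between libraries. Tnfrsf17 rose in L_IR against IR (1.29 ± 0.08, adjusted p = 9.63e-06) and against Ctrl (1.29 ± 0.13, adjusted p = 0.00240).

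Sdc1, the heparan sulfate proteoglycan used to stain plasma cells (chromosome 12, 8771323 to 8793715, plus strand), was at 4.22, 4.22 and 4.86 FPKM in Ctrl, 5.71, 6.03 and 5.65 in IR, 7.57, 8.07 and 8.10 in Ab_IR, and 11.4, 11.5 and 11.7 in L_IR. The groups did not overlap, and IR was nearer to Ctrl than to either treated group. Sdc1 rose in L_IR against Ctrl (1.21 ± 0.07, adjusted p = 0.000236). Against IR it was higher in L_IR by 0.88 ± 0.04 and in Ab_IR by 0.39 ± 0.05, both past the adjusted p and under the fold threshold.

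Of the antibody-assembly genes, Jchain, whose product joins IgM and IgA into polymers (chromosome 5, 88519809 to 88527891, minus strand), was at 630.0, 617 and 513 FPKM in Ctrl, 707, 724 and 728 in IR, 1008, 919 and 934 in Ab_IR, and 1259, 1287 and 1280.1 in L_IR. It followed the order of Sdc1, with no overlap between groups. Jchain rose in L_IR against Ctrl (1.12 ± 0.10, adjusted p = 0.00135), a value that was 0.92 and under the fold threshold after quantile normalization. The differences of Ab_IR from Ctrl (0.70 ± 0.11, adjusted p = 0.0289) and of IR from Ctrl (0.30 ± 0.10, adjusted p = 0.0489) were smaller.

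Mzb1, an ER protein that aids immunoglobulin assembly and secretion (chromosome 18, 35647267 to 35649367, minus strand), was at 11.5, 27.8 and 25.2 FPKM in Ctrl, 60.7, 62.1 and 65.2 in IR, 42.4, 47.2 and 42.9 in Ab_IR, and 60.2, 58.6 and 58.2 in L_IR. Ctrl replicate 1 was under 12 FPKM while the other Ctrl libraries were above 25, and every irradiated library was above all of Ctrl. Mzb1 rose in IR against Ctrl by 1.59 ± 0.31 (adjusted p = 0.00731), and by 1.21 (adjusted p = 2.14e-05) without Ctrl replicate 1. In L_IR against Ctrl it rose by 1.51 ± 0.30 (adjusted p = 0.0320), and by 1.13 without Ctrl replicate 1, but leaving out Ctrl replicate 3 or any L_IR library took the adjusted p to between 0.0543 and 0.131. The log2 difference of Ab_IR from IR, -0.50 ± 0.05, turned to 0.64 when the heart transcript split was a term, and that of L_IR from IR, -0.09 ± 0.03, turned to 1.05, so neither direction is given as a result. That term is estimated from Ctrl replicate 1 against the other Ctrl libraries alone.

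Derl3, which acts in the disposal of misfolded ER proteins and whose promoter holds the ERSE letters above (chromosome 10, 75893413 to 75895941, plus strand), was at 6.22, 5.42 and 6.0 FPKM in Ctrl, 13.7, 13.2 and 12.5 in IR, 10.4, 11.1 and 9.49 in Ab_IR, and 14.9, 15.4 and 14.4 in L_IR. Every irradiated library was above every Ctrl library, and L_IR was the highest group. Derl3 rose in IR (1.04 ± 0.07, adjusted p = 0.000148; 0.99 without Ctrl replicate 2) and in L_IR (1.21 ± 0.07, adjusted p = 0.000224) against Ctrl. Fkbp11, a prolyl isomerase of the ER (chromosome 15, 98724366 to 98728198, minus strand), was at 3.32, 5.33 and 5.47 FPKM in Ctrl, 7.63, 7.82 and 7.83 in IR, 5.17, 4.17 and 4.81 in Ab_IR, and 5.16, 4.84 and 4.72 in L_IR. Only IR stood apart, and Ctrl, Ab_IR and L_IR overlapped. Fkbp11 in IR differed from Ctrl by 0.64 ± 0.16 (adjusted p = 0.0193), under the fold threshold, while the difference from Ctrl was 0.02 (95% interval -0.39 to 0.43) in Ab_IR and 0.07 (-0.32 to 0.46) in L_IR, and both turned negative without Ctrl replicate 1 (-0.17 and -0.12).

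The first comparison was of irradiation alone with no irradiation. In IR against Ctrl, Xbp1, Pou2af1, Mzb1 and Derl3 rose, and the others did not pass the threshold of an adjusted p under 0.05 with an absolute log2 fold change above 1. These 4 of 10 compare with 3.03% of the 12072 genes tested that were called higher in IR and 7.6% called in either direction. The median log2 fold change of the 10 genes was 0.74, against -0.05 over all genes tested. By the adjusted p alone 9 of the 10 were higher in IR, all but Tnfrsf17, against 17.5% of all genes, and the 4 calls stood without Ctrl replicate 1.

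The irradiated groups with Ab or L were compared with IR, and both comparisons use the same IR libraries. In Ab_IR, Xbp1 and Pou2af1 fell and none of the 10 rose; 2.46% of 12067 genes were called lower and 7.57% in either direction. The median of the 10 genes was -0.50, against 0.06 over all genes. By the adjusted p alone 7 were lower, among them Mzb1, whose direction turned with the heart transcript term, and 3 (Sdc1, Jchain and Tnfrsf17) were higher, where 29.4% of all genes were lower and 39.4% higher. In L_IR, Pou2af1 fell and Tnfrsf17 rose, with 2.13% of 12163 genes called lower, 4.09% higher and 6.22% in all. The median was 0.23, against 0.07 over all genes, and by the adjusted p alone 6 genes were higher and 3 (Xbp1, Fkbp11 and Pou2af1) lower, where 40.8% of all genes were higher and 26% lower. The IR libraries carry the heart transcripts and the Ab_IR and L_IR libraries do not. The part of that split in these differences was not tested beyond the fit with the split as a term. Under that term Ab_IR against IR kept 1 of its 2 calls (Pou2af1), and L_IR against IR kept both of its calls and gained Mzb1 (1.05). The term is estimated from Ctrl replicate 1 against the other Ctrl libraries alone.

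Ab_IR and L_IR shared the exposure and the day of collection. No gene of the 10 was called between them by limma, while 9 had an unadjusted p under 0.05, all lower in Ab_IR; 0.533% of 12194 genes were called. The same 9 genes, all but Fkbp11, passed the adjusted p, where 19.8% of all genes were lower in Ab_IR. Irf4 (-0.97 ± 0.06, adjusted p = 5.46e-05) and Prdm1 (-0.89 ± 0.06, adjusted p = 0.000101) had the largest differences, followed by Pou2af1 (-0.74 ± 0.08) and Tnfrsf17 (-0.69 ± 0.06). With 0.1 FPKM added in place of 1, Irf4 and Prdm1 passed the fold threshold too (-1.05 and -1.21). Fkbp11 differed by -0.05 (95% interval -0.22 to 0.12). The median was -0.49, against 0.01 over all genes.

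Against Ctrl, with the same Ctrl libraries as the first comparison, the groups with Ab and L gave these values. In L_IR, 7 genes rose (Irf4, Pou2af1, Sdc1, Tnfrsf17, Jchain, Mzb1 and Derl3), where 2.03% of 12251 genes were called higher and 2.65% in either direction. The median was 1.17, against 0.00028 over all genes, and by the adjusted p alone 9 were higher, all but Fkbp11, against 4.76% of all genes. In Ab_IR no gene of the 10 was called by limma, against 0.923% of 12134 genes, with 8 at an unadjusted p under 0.05 and all of these higher. Sdc1 (0.72 ± 0.08), Derl3 (0.72 ± 0.09) and Jchain (0.70 ± 0.11) passed the adjusted p, against 1.45% of all genes, and the median was 0.49 against -0.0041. Mzb1 had the largest value there, 1.09 ± 0.30, and an adjusted p of 0.142. Its spread in Ctrl comes from replicate 1, and without it the value was 0.72 with an adjusted p of 0.00258.

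**Figure D2:**
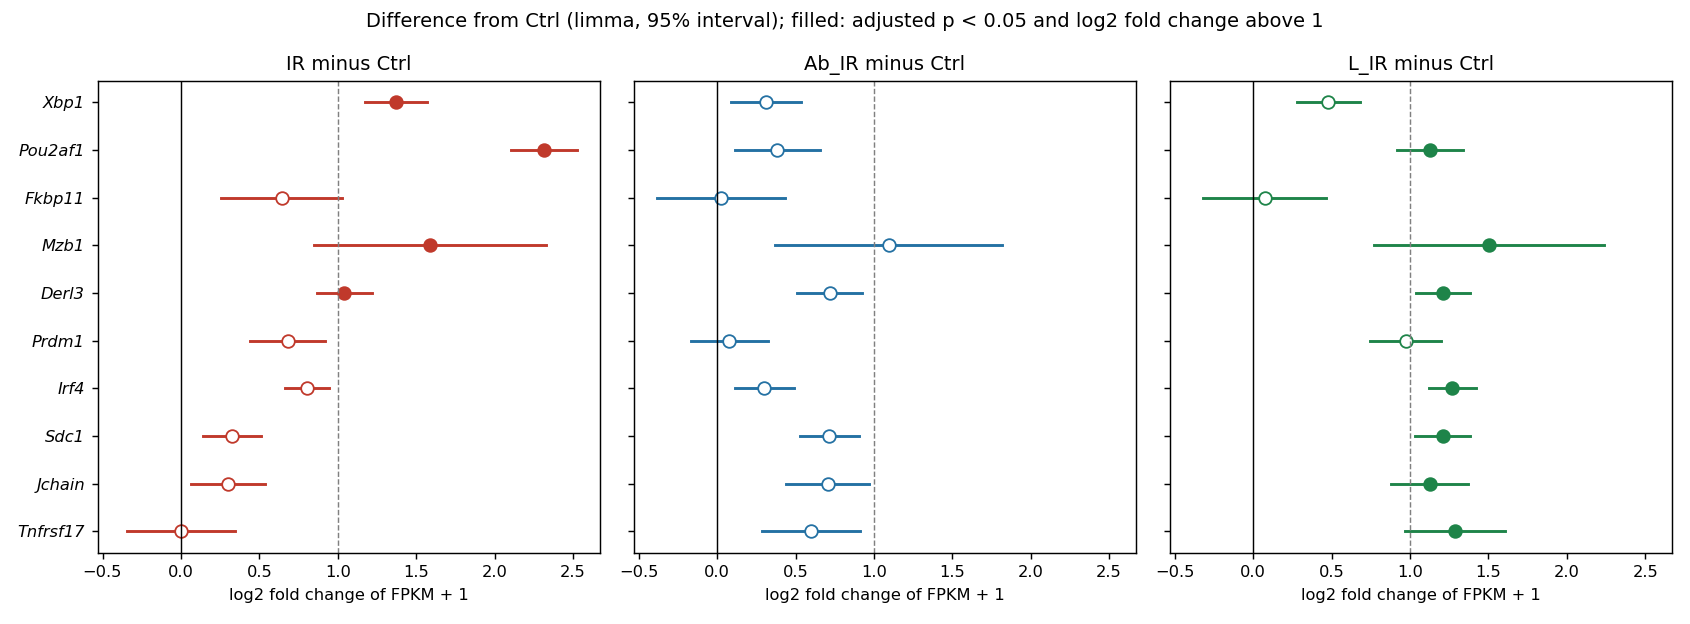
Log2 fold change of FPKM + 1 (horizontal axis) of each gene in IR, Ab_IR and L_IR against the same 3 Ctrl libraries, from limma; lines are 95% intervals, filled points passed an adjusted p under 0.05 and a log2 fold change above 1, and the dashed line marks that fold. Filled points number 4 in IR, 0 in Ab_IR and 7 in L_IR, and Pou2af1 in IR lies farthest right at 2.32.

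Across the 12 libraries the genes sorted into patterns rather than moving as a block, as the plot of correlations shows. Pearson's r of log2(FPKM + 1) was 0.964 between Xbp1 and Pou2af1 and 0.890 between Xbp1 and Fkbp11, which were highest in IR. It was 0.963 between Sdc1 and Jchain and 0.937 between Sdc1 and Tnfrsf17, which were highest in L_IR and second highest in Ab_IR, and 0.971 between Irf4 and Prdm1. Mzb1, whose difference of L_IR from IR turned from -0.09 to 1.05 with the heart transcript term, correlated with Xbp1 at 0.734 and with Sdc1 at 0.624. Between the set of Xbp1, Pou2af1 and Fkbp11 and that of Sdc1, Jchain and Tnfrsf17, Pearson's r ran from -0.29 (Fkbp11 and Tnfrsf17) to 0.14 (Pou2af1 and Sdc1). Irf4 and Prdm1 correlated with genes of both, for example Irf4 with Sdc1 at 0.764 and Prdm1 with Pou2af1 at 0.708. These values are descriptive, since the libraries fall into 4 groups and share their scaling.

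**Figure D3:**
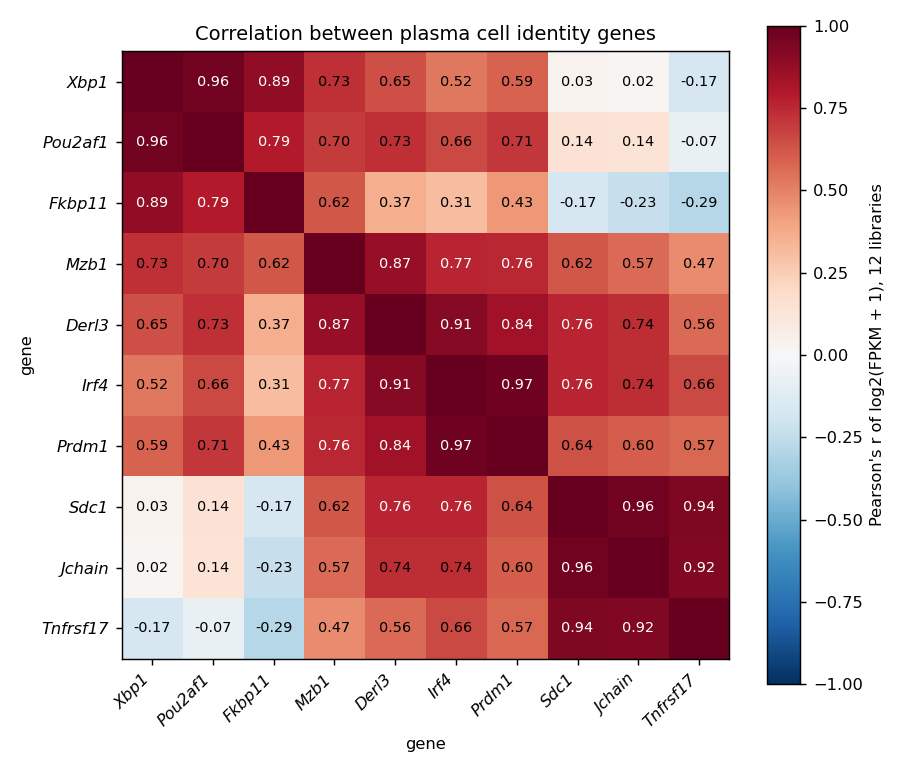
Pearson's r (color, with values in the cells) between pairs of the 10 genes over the 12 libraries on log2(FPKM + 1); the diagonal is each gene with itself. Xbp1, Pou2af1 and Fkbp11 form one warm block (0.79 to 0.96), Sdc1, Jchain and Tnfrsf17 another (0.92 to 0.96), and Mzb1, Derl3, Irf4 and Prdm1 correlate with the genes of both at 0.31 to 0.76.

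A further description set each gene beside Igkc, the kappa light chain constant gene, in FPKM per 1000 FPKM of Igkc. Pou2af1 was at 0.728 ± 0.030 in Ctrl, 2.49 ± 0.03 in IR, and then 0.605 ± 0.065 in Ab_IR and 0.730 ± 0.003 in L_IR (SD, n = 3). IR was the highest group by this measure too, and L_IR and Ctrl differed by less than their spread. Xbp1 was at 7.47 ± 1.70, 11.9 ± 0.4, 5.62 ± 0.18 and 4.40 ± 0.10 in the same order, with Ctrl replicate 1 at 5.52 and the other Ctrl libraries at 8.54 and 8.36. Jchain was at 56.0 ± 6.5, 42.6 ± 2.3, 56.0 ± 2.1 and 52.1 ± 0.8, and Tnfrsf17 at 0.302 ± 0.0999, 0.181 ± 0.021, 0.302 ± 0.011 and 0.363 ± 0.024, so both had their lowest mean in IR by this measure. For Tnfrsf17, Ctrl replicate 1 (0.192) lay within the IR range of 0.161 to 0.203. Sdc1 also had its lowest mean in IR (0.343), with Ctrl replicate 1 at 0.337. Fkbp11 was at 0.464, 0.460, 0.277 and 0.201, and Mzb1 at 2.15, 3.72, 2.60 and 2.41. Prdm1 (0.173) and Derl3 (0.779) had their highest means in IR. Irf4 lay between 0.427 ± 0.028 in Ab_IR and 0.635 ± 0.034 in IR.

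Other genes of the pathway were read from lists of plasma cell, secretory and survival genes. Of the 12 immunoglobulin constant genes, 11 were tested, of which 4 rose in IR against Ctrl, 3 in Ab_IR and 10 in L_IR, where 3.03% of all genes were called higher in IR, 0.923% in either direction in Ab_IR and 2.03% higher in L_IR. The median log2 fold changes were 0.93, 0.94 and 1.37, against -0.05, -0.0041 and 0.00028 over all genes. Ighe (2.65), Iglc1 (1.47), Ighg3 (1.44) and Ighm (1.42) rose in IR. Reads of near-identical immunoglobulin genes can be split between them, so single values are uncertain. Their summed level was 13548 to 17045 FPKM in Ctrl, 23600 to 25380 in IR, 23223 to 23996 in Ab_IR and 34255 to 35307 in L_IR, and IR and Ab_IR overlapped.

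**Figure D4:**
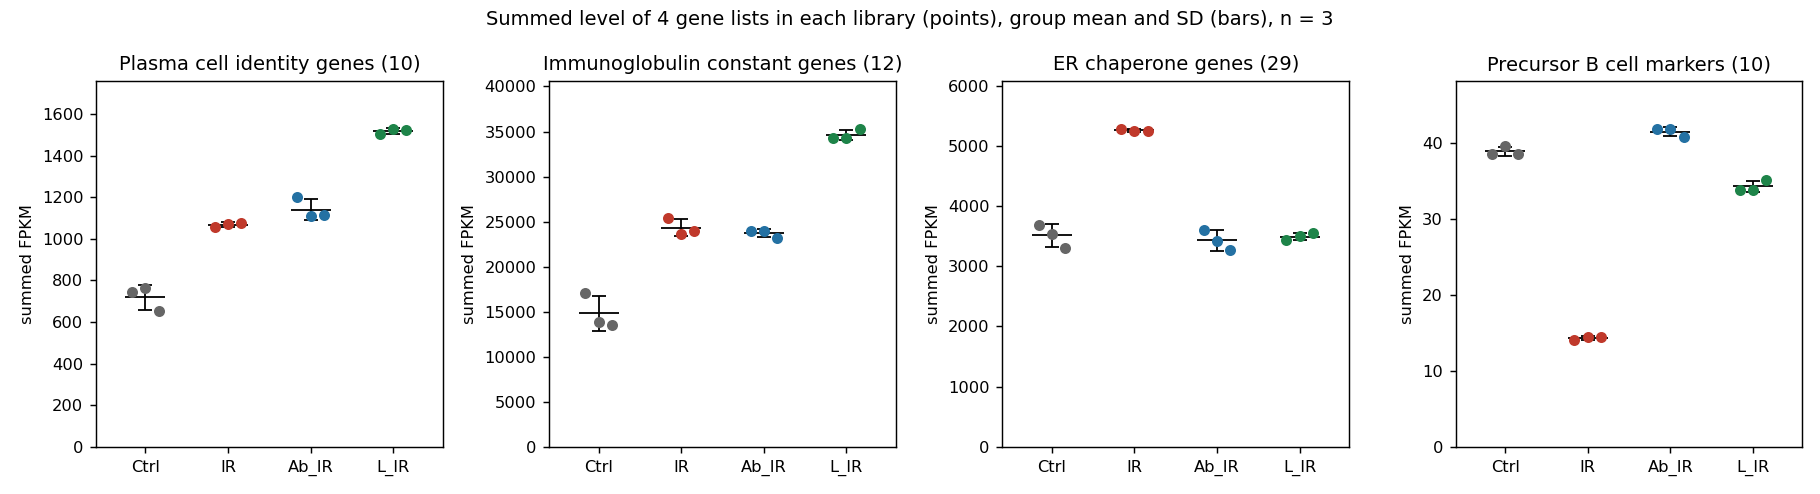
Summed FPKM (linear axis from 0) of the 10 plasma cell identity genes, 12 immunoglobulin constant genes, 29 ER chaperone and Xbp1 target genes and 10 precursor B cell markers in each library; points are libraries, long bars means and whiskers SD over 3 libraries. The first 2 lists are highest in L_IR, the first being mostly Jchain (1259 to 1287 of 1504 to 1529 FPKM in L_IR), the ER list is highest in IR (5242 to 5283 FPKM) and level in the other groups, and the precursor B cell list is lowest in IR.

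Genes of ER folding that include known Xbp1 targets were, summed, highest in IR, as Xbp1 was, and overlapped in the other groups. Of 28 tested (29 measured), 2 rose in IR against Ctrl, Creld2 (1.53) and Sdf2l1 (1.26), both ER stress-induced genes, against 3.03% of all genes. By the adjusted p alone 22 were higher, against 17.5% of all genes, and 2 lower, Fkbp7 (-0.78) and Dnajb9 (-0.52), and the median was 0.54, against -0.05 over all genes. The same list had a median of -0.53 in Ab_IR against IR (0.06 over all genes), where 2 fell and 2.46% of all genes were called lower. In L_IR against IR its median was -0.50 (0.07 over all genes), and 2 fell, with 2.13% of all genes called lower. Against Ctrl, limma called none of the 28 in Ab_IR or L_IR (5 had an unadjusted p under 0.05 in each), and the medians were 0.01 and 0.03. Their sum was 5242 to 5283 FPKM in IR, 3307 to 3683 in Ctrl, 3264 to 3605 in Ab_IR and 3433 to 3545 in L_IR, so only IR stood apart. Of 30 genes of ER translocation and secretion none was called by limma in IR against Ctrl, 15 had an unadjusted p under 0.05 and 13 were higher at the adjusted p alone, against 17.5% of all genes, and the median was 0.31, against -0.05. Ddost, a subunit of the oligosaccharyltransferase, gave 0.46 (adjusted p = 0.00264) and Ssr2, of the translocon-associated complex, 0.46 (adjusted p = 0.0769).

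Among 10 ER stress sensors and effectors, Chac1 alone was called higher in IR (1.04, adjusted p = 0.0316; 3.03% of all genes were), at 0 to 1.23 FPKM in Ctrl and 1.89 to 2.54 in IR, and no gene of the list was called without Ctrl replicate 1. Atf4, a transcription factor of the amino acid response, and Asns, an enzyme it induces, had the highest levels of the list and gave -0.29 and -0.35 and passed the adjusted p, and the median was -0.11. By the adjusted p alone 4 of the list were lower (25.5% of all genes) and 2 higher (17.5%). Ppp1r15a (-0.88) and Ddit3 (-0.69) fell most, and Atf6b was higher (0.42). Of 23 further plasma cell genes tested, 3 rose in IR against Ctrl, the lambda variable gene Iglv1 (1.93), the chemokine receptor Ccr10 (1.34) and Edem1 (1.08), which acts in ER-associated degradation, and 1 fell, Cd93 (-1.14), which precursor B cells and stem cells carry too. Of all genes 3.03% were called higher and 4.57% lower there. The median of the 23 was 0.26 in IR, 0.15 in Ab_IR and 0.29 in L_IR against Ctrl, beside all-gene medians of -0.05, -0.0041 and 0.00028. The 11 survival signals tested had 3 that fell in IR, Cxcl12 (-1.84), Il6 (-1.76) and Vcam1 (-1.35), which marrow stromal cells make, where 4.57% of all genes were called lower, and a median of -0.53, against -0.05 over all genes. By the adjusted p alone 7 were lower (25.5% of all genes) and 1 higher (17.5%), Tnfsf13 (APRIL), a ligand of Tnfrsf17, at 0.69 (adjusted p = 0.00484). Against IR, 4 rose in Ab_IR and 2 in L_IR, where 5.11% and 4.09% of all genes were called higher. Of the 20 genes of the mature B cell program 6 were tested in IR against Ctrl and none was called by limma, with 3 at an unadjusted p under 0.05. The same 3 passed the adjusted p, Cd72 (-0.89) and Cd79b (-0.64) lower and Bcl6 (0.33) higher, a share near that of all genes (25.5% lower and 17.5% higher). Cd37 and Cd79a gave 0.13 and 0.18 and did not pass, and the median was 0.11. Against IR, 3 of 8 tested rose in Ab_IR and 2 of 8 in L_IR, where 5.11% and 4.09% of all genes were called higher. Cd79a had group means of 13.3 (Ctrl), 14.9 (IR), 19.0 (Ab_IR) and 23.1 FPKM (L_IR), in the order of Sdc1 and Jchain. Only 4 of the 20 genes had their highest mean in L_IR and their next in Ab_IR, and Cd37 was lowest in L_IR (38.3 FPKM). The summed list was 77.8 to 84.0 FPKM in Ctrl, 76.6 to 77.25 in IR, 97.9 to 98.8 in Ab_IR and 93.2 to 95.2 in L_IR. The part of B cells in the levels of the 10 genes was not tested.

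Markers of other cell types moved between the same groups. The summed precursor B cell list was 38.5 to 39.6 FPKM in Ctrl, 14.1 to 14.5 in IR, 40.8 to 41.9 in Ab_IR and 33.8 to 35.2 in L_IR, with Vpreb2, Rag1, Rag2 and Lef1 under 1 FPKM in all 12 libraries and Cd93, Dntt and Vpreb3 the highest of its 10 genes. Of 4 tested in IR against Ctrl, Dntt (-3.47) and Cd93 (-1.14) fell and carry the sum (4.57% of all genes were called lower), whereas Vpreb3 rose (1.26, adjusted p = 0.0362; means of 1.08 and 3.57 FPKM), a call that was lost without Ctrl replicate 1. Plasmacytoid dendritic cell genes, led by Bst2, Irf8 and Ly6d, summed to 94.5 to 97.2 in Ctrl, 53.8 to 60.9 in IR, 98.5 to 103.5 in Ab_IR and 104.0 to 107.0 in L_IR. T and NK cell genes, led by Nkg7 (group means of 209 to 266 FPKM, most of the sum), Gzma and Lck, summed to 181 to 298 in Ctrl and 237 to 240 in IR, 299 to 306 in Ab_IR and 270 to 278 in L_IR. Of the 12 genes, 10 had their highest mean in L_IR, and 8 of these their next in Ab_IR, as Sdc1, Jchain and Tnfrsf17 had. Cd4 was highest in Ctrl and Nkg7 in Ab_IR, and Gzma and Ncr1 were lowest in Ab_IR. Lck was at 10.5 in L_IR, 7.25 in Ab_IR, 6.84 in Ctrl and 4.24 in IR. By the adjusted p, 6 of the 12 T and NK cell genes were higher in L_IR than in Ctrl (4.76% of all genes), 10 of 11 tested were higher in L_IR than in IR (40.8%), and 8 of 11 were lower in Ab_IR than in L_IR (19.8%). The part of these 3 lists in the levels of the 10 genes was not tested.

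Myeloid, erythroid and megakaryocyte lists differed between the groups too. Neutrophil precursor genes, led by Mpo, Elane and S100a9, summed to 11023 to 12929 FPKM in Ctrl, 16566 to 16830 in IR, 12082 to 12662 in Ab_IR and 8994 to 9203 in L_IR, and erythroid genes, led by the globins, to 3425 to 4061, 600 to 611, 3525 to 3693 and 1840 to 1902. Megakaryocyte genes (58.5 to 72.2, 13.3 to 15.3, 147 to 150 and 90.0 to 96.1), mast cell and basophil genes (598 to 680, 211 to 219, 793 to 845 and 495 to 519) and macrophage genes (99.4 to 106, 71.3 to 81.9, 119 to 129 and 112 to 131) were lowest in IR as well. The part of these shifts in the levels of the 10 genes was not tested.

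The 10 genes were each scaled to the same mean and spread on log2(FPKM + 1) and then averaged. The genes whose levels followed this average most closely were sought among the 5030 genes whose mean was 10 FPKM or more. The leading 10 were all immunoglobulin variable genes, with Pearson's r of 0.979 to 0.996 over the 12 libraries. With immunoglobulin genes left out, a choice made after seeing this result, Txndc5 (r = 0.971), a protein disulfide isomerase of the ER, led the 4828 remaining genes, at means of 36.6 FPKM (Ctrl), 67.6 (IR), 48.9 (Ab_IR) and 69.9 (L_IR). It was followed by Cpt1a (0.962), Ecd (0.952), Trp53inp1 (0.945) and Man1b1 (0.944). Edem1 was nearest to Pou2af1 (0.997), at 26.2, 56.7, 30.5 and 37.7 FPKM in the same order of groups. Nearest to Tnfrsf17 were Shisa5 (0.978), Cd74 (0.956), the invariant chain of antigen presentation, and Ccl5 (0.956). Ccl5 was at 14.1, 14.3, 34.8 and 56.2 FPKM. These correlations are descriptive and rest on 4 group means and their scaling.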

How the data were processed

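RNA-seq values of 12 libraries (3 each of Ctrl, IR, Ab_IR and L_IR) were analysed, grouped by the titles in the labels. The deposited values, 1 per gene row with 2 decimals, were read as FPKM computed by the authors: the files do not name the unit, and the library sums are too low for CPM or TPM. The submitters' processing notes name fastp, HISAT2, StringTie and GRCm38/mm10, and the study's methods name RSEM and DESeq2, so which tool quantified these values is not settled. The annotation is not given in the sources used here. Libraries were stranded, per the labels.

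FPKM are not counts, so limma (version 3.58.1, R 4.3.3), with a trended prior, was applied to log2(FPKM + 1) in the 2 groups of a comparison, on rows with 1 FPKM or more in 3 or more of its 6 libraries. Fold changes on this scale understate those of low genes. A call needed an adjusted p under 0.05 (Benjamini-Hochberg, over all genes tested) and a log2 fold change beyond 1 in either direction. The script was tested on simulated data. The 10 genes and the lists were chosen with earlier results of these data known. From each list up to 4 genes called in IR against Ctrl are named, by size of change and with a mean of at least 1 FPKM, and the 2 highest in level where fewer than 2 were called; of cell type lists the leading 3 in level. Igkc, Fkbp7, Dnajb9, Ppp1r15a, Ddit3, Atf6b, Cd72, Cd79b, Bcl6, Tnfsf13, Cd4, Ncr1, and the genes alike after immunoglobulin genes were left out, were chosen after their values were seen. Alternatives were another pseudocount, filters, scalings, variance prior, fits of all libraries, terms for replicate number or heart transcripts, and leaving out each library. Positions are from GENCODE M21 and promoters from RefSeq. Figures were drawn with matplotlib 3.10.9.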

Additional observations from a re-analysis of the deposited data

How the results depend on the processing

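Among the 10 genes 4 were called in IR against Ctrl, 2 in Ab_IR against IR, 2 in L_IR against IR, 0 in Ab_IR against L_IR, 0 in Ab_IR against Ctrl, and finally 7 in L_IR against Ctrl. With the adjusted p alone the counts were 9, 10, 9, 9, 3 and 9. With the heart transcript split as a term, Ab_IR against IR gave 1 and L_IR against IR gave 3 (Mzb1 added). The calls among all genes went from 914 to 1960 in Ab_IR against IR. The term rests on Ctrl replicate 1 against the other Ctrl libraries. Whatever else sets that library apart, with 44.1% of its rows at 0, cannot be told from the split. Against Ctrl, this fit sets Ab_IR or L_IR against Ctrl replicate 1 alone. There Mzb1 was 1.85 in Ab_IR, and Prdm1 was 1.10 and Pou2af1 0.95 in L_IR. L_IR against Ctrl gave 6 with no filter (Mzb1 lost) and after quantile normalization (Jchain lost), and 8 with 0.1 FPKM added or immunoglobulin genes left out (Prdm1 added). With all 12 libraries in one fit, Ab_IR against Ctrl gave 1 (Mzb1). With a mean of at least 10 FPKM required, 5 of the 10 genes were tested, and L_IR against IR gave 1 and L_IR against Ctrl 4. Ab_IR against L_IR gave 2 with 0.1 FPKM added (Irf4 and Prdm1) and 1 with immunoglobulin genes left out (Irf4, -1.10), a scaling that moved the median of all genes by -0.12 there and by -0.13 in Ab_IR against IR. Leaving out each library in turn gave 3 to 4, 2 to 2, 2 to 2, 0 to 1, 0 to 0 and 6 to 8 in the same order; the 1 in Ab_IR against L_IR was Irf4 without Ab_IR replicate 1. Except where a value or the construction of the alternative shows it, the cause was not tested.

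Signs turned for 3 genes. Tnfrsf17 in IR against Ctrl was 0.0036 with 0.1 FPKM added, 0.18 after quantile normalization, 0.056 with scaling by the median ratio, 0.066 with immunoglobulin genes left out, and 0.0015 to 0.12 in the leave-one-out fits where it turned. Fkbp11 was -0.11 to 0.020 in Ab_IR against L_IR when a library was left out, positive without Ab_IR replicate 2, and -0.031 in Ab_IR against Ctrl with immunoglobulin genes left out, -0.17 without Ctrl replicate 1 and -0.035 without Ab_IR replicate 1, and -0.12 in L_IR against Ctrl without Ctrl replicate 1. Mzb1 with the heart transcript split was 0.64 in Ab_IR against IR and 1.05 in L_IR against IR.

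Replicate numbers did not pair the libraries: same-numbered libraries deviated from their group means with correlations of -0.27 to 0.21. With the replicate block the counts were 4, 2, 2, 0, 0 and 6 in the order above, Mzb1 in L_IR against Ctrl no longer passing (adjusted p = 0.0539). In no comparison did all 3 samples correlate best with their own number. The unknown depth limits what can be said of the low genes, Prdm1 and Tnfrsf17 above all.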
